A study of Homo sapiens with 4 samples.

Results

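The genes described here are the nuclear-encoded genes of the mitochondrial respiratory chain and ATP synthase. They were taken by name from the protein-coding Ensembl genes of the deposited table: every symbol that begins with NDUF, SDHA to SDHD, UQCR, COX4 to COX8 or ATP5, and CYCS and CYC1. The rule found 105 of 53777 Ensembl genes, of which 20269 are protein-coding, and it used no measured value. By known function, 37 encode subunits of complex I, 4 of complex II, 9 of complex III, 11 of complex IV and 15 of complex V, and 1 encodes cytochrome c. A further 10 are assembly factors, 2 are other factors, 8 are tissue-specific forms of subunits, and 8 are readthrough, pseudogene-named or second rows of a symbol.

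RNA was sequenced from NUGC3, a long-established human line of stomach cancer cells. The series holds 4 libraries, 2 from wild-type cells and 2 from MYC knockdown cells. MYC is a growth-promoting transcription factor, and the question was which RNAs differ after its knockdown, whose method the sources used here do not give. The labels do not state whether replicates were grown separately, so a p-value reflects only how far these samples spread, and that spread may be technical.

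The respiratory chain sits in the inner mitochondrial membrane. Complex I takes electrons from NADH and complex II takes them from succinate, both pass them to ubiquinone, complex III passes them on to cytochrome c, and complex IV passes them to oxygen, while complex V uses the resulting proton gradient to make ATP. All complexes but complex II also hold subunits encoded by mitochondrial DNA, so nuclear and mitochondrial transcripts together supply the chain, and MYC is known to raise the production of mitochondria in growing cells.

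Values are FPKM, a unit inferred from the table, which are fragments per kilobase of transcript and per library size, so levels of different genes are given per length. FPKM keeps no read depth, and no counting error is given. In wild type MYC measured 82.9 and 82.0 FPKM, and in the knockdown 65.0 and 75.8, without overlap (log2 change −0.23, limma adjusted p = 0.237). The deposited FPKM of the Ensembl genes summed to between 615172 and 676445 in the 4 libraries, lowest in MYC knockdown replicate 2. All 5 epithelial markers were detected in every library, with EPCAM at 181 to 210 FPKM (log2 change −0.15) and KRT19 higher in the knockdown (log2 change 0.74, limma adjusted p = 0.056). Of 6 markers of other cell types, PTPRC, VWF and COL1A2 were listed at 0 and CD3E at 0.03 or less, while COL1A1 stood at 2.98 to 8.12 and CD68 at 12.4 to 22.3 FPKM. The summed FPKM of these 6 markers was 19.0 and 22.9 in wild type, then 29.6 and 25.3 in the knockdown, and its part in the results was not tested.

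Of the 105 genes, 92 had at least 1 FPKM in at least 2 libraries and were tested, among them all 77 genes for structural subunits and cytochrome c. None of the 92 passed an adjusted p of 0.05 in limma with Benjamini-Hochberg adjustment over 12953 genes, nor did any other gene (0%). At an unadjusted p under 0.05 there were 14 of the 92 (15.2%), 11 lower and 3 higher in the knockdown, beside 3354 of all genes tested (25.9%). At an adjusted p under 0.10, which is a looser limit, 6 of the 92 (6.52%) passed, beside 10.4% of all genes tested. Of these 6, 5 were lower (4.91% of all genes were called in that direction) and 1 was higher (5.5% of all genes). The lower genes were CYCS, UQCRH, SDHB, UQCRC2 and ATP5D, and the higher gene was ATP5H. Without MYC knockdown replicate 1, 24 members passed 0.05 (26.1% of all genes did), and without MYC knockdown replicate 2, 18 did (26.4% of all genes), but the lone knockdown library is then assumed to vary like wild type, whose replicates lay closer together. The count past 0.10 depended on which genes were tested. With no filter on low values 0 members passed that limit, nor did any of the 24879 genes then tested. With a mean of at least 5 FPKM 9 members passed it, beside 1492 of 9593 genes. With protein-coding rows alone 8 members did, beside 1651 of 11552 genes. With a wild-type library left out that group holds 1 library, so such a fit cannot decide whether the 6 genes pass.

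In 30 of the 92 genes (32.6%) each knockdown value was under each wild-type value, beside 25.2% of all genes tested. In 12 (13.04%) each was above, beside 33.4% of all genes. Among the 7350 genes with a wild-type mean of at least 10 FPKM, the level at which most respiratory chain genes lie, these shares were 31.5% and 30.1%. The share of respiratory chain genes that were lower was near that of this set, and the share that were higher was smaller. The set is not matched in level, as its wild-type median was 27.2 FPKM, beside 105 for the 92 genes. This split depends on the scaling of the libraries, and the shares over all genes moved too. With equal column sums 18 were lower and 29 higher (18.1% and 44.7% of all genes), after quantile normalization 25 and 17 (29.9% and 28.9%), and with median-of-ratios scaling 46 and 6 (30.7% and 29.3%). It also depends on the knockdown library, with 66 lower when MYC knockdown replicate 1 was left out (42.6% of all genes were) and 43 higher when MYC knockdown replicate 2 was left out (51.8% of all genes).

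As deposited, the medians of complexes I to V all lay below 0 but differed in size, with those of complexes I and II close to 0. The median log2 change, knockdown minus wild type on the log2(FPKM + 1) scale, was −0.0023 for complex I, −0.0051 for complex II, −0.20 for complex III, −0.038 for complex IV and −0.17 for complex V, beside 0.038 for all genes tested. Within complex I the members lay between −0.18 and 0.22, and within complex II between −0.45 and 0.23. Complex III was the group in which all 9 members had a negative change, from −0.50 to −0.076. Summed over the 77 structural genes, FPKM was 12330 and 12062 in wild type, then 12192 and 10883 in the knockdown, which is 1.82% and 1.80%, and 1.89% and 1.77%, of the Ensembl total, so the groups overlapped in both measures.

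**Figure D1:**
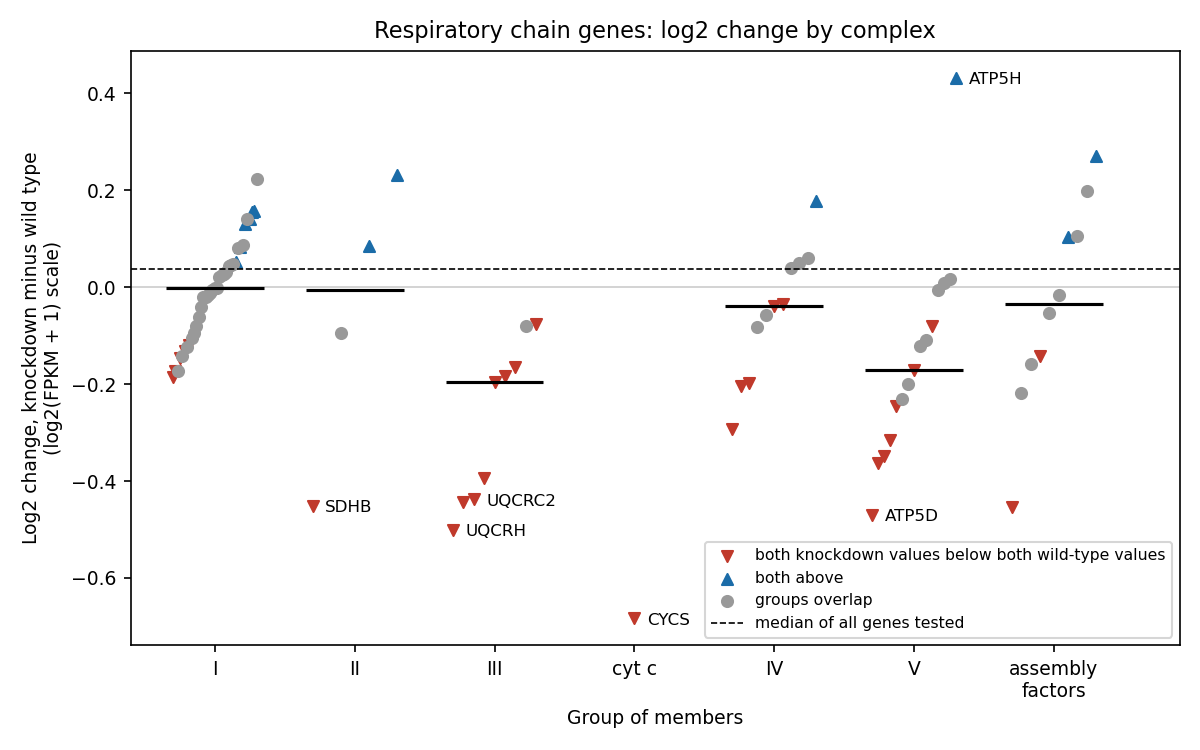
Log2 change (knockdown minus wild type, log2(FPKM + 1) scale) of each tested subunit and assembly factor, 1 point per gene, grouped by complex on the horizontal axis, with a bar at the median of each group of more than 1 gene and a dashed line at the median of all genes tested (0.038). Points of complex I and II scatter around 0, those of complex III all lie below it, and CYCS at −0.68 and ATP5H at 0.43 are the lowest and the highest gene drawn.

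Cytochrome c, the small haem protein that carries electrons from complex III to complex IV and that starts apoptosis when it leaves the mitochondrion, is encoded by CYCS (ENSG00000172115, chromosome 7, 25120091 to 25125361, minus strand, in GENCODE release 29 on GRCh38). CYCS stood at 110.0 and 114.0 FPKM in wild type, against 68.3 and 70.5 in the knockdown. The groups did not overlap. The log2 change was −0.68 (SE 0.073, limma adjusted p = 0.056), and against the wild-type mean MYC knockdown replicate 1 was at −0.71 and replicate 2 at −0.66. CYCS has 39 pseudogene rows in the table, and these summed to 1.38, 8.02, 4.29 and 0 FPKM in the 4 libraries, at most 7.03% of CYCS. The sources used here do not say how reads were divided between CYCS and such copies.

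The promoter windows of CYCS, SDHB, UQCRH and ATP5H are shown because these 4 had the smallest adjusted p-values of all the members. They were read from RefSeq on GRCh38.p14 as 250 bases before to 50 bases after the start, 5′ to 3′ in the direction of the gene. Capitals mark matches to GCGCATGC, the core of the site of the mitochondrial regulator NRF1, or to CCGGAAG, the core of ETS-family sites such as that of GABP, on either strand. CYCS (chr7:25125211-25125510, minus strand) holds the NRF1 core at −169 from the start, SDHB (chr1:17053983-17054282, minus strand) holds the NRF1 core at −200 and the ETS core at −128, UQCRH (chr1:46303448-46303747, plus strand) holds the ETS core at −46, and ATP5H (chr17:75046920-75047219, minus strand) holds it at −101.
CYCS: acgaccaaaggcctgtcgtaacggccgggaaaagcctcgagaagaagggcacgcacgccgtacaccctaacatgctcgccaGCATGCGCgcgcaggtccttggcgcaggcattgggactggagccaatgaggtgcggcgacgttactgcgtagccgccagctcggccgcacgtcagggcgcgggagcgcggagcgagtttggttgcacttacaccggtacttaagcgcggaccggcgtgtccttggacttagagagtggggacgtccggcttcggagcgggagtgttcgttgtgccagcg
SDHB: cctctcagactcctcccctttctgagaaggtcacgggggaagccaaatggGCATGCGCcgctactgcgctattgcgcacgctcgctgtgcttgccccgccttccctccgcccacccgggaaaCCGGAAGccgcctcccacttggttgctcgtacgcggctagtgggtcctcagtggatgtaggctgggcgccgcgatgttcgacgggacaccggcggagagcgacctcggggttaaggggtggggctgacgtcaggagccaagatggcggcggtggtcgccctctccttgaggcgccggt
UQCRH: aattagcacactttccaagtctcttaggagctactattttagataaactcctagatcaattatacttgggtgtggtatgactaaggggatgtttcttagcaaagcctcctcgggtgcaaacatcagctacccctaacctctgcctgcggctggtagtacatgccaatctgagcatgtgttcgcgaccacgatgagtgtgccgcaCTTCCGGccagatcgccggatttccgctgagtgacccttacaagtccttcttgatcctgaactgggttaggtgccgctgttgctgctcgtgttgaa
ATP5H: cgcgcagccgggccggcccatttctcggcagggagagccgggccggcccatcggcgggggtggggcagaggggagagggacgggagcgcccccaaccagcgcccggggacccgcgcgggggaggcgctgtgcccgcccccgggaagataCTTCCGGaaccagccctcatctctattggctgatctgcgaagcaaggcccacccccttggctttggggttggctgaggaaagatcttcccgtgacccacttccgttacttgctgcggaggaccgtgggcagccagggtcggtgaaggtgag

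None of these 4 windows, nor that of UQCRC2, contains CACGTG, the E-box letters that MYC is known to bind. Of 63 structural and cytochrome c genes with a window in the table, 7 hold CACGTG (11.1%), beside 10.3% of 9709 tested genes and 7.26% of all 35116 windows. The NRF1 core was present in 14 of the 63 (22.2%), beside 5.74% of tested genes and 3.05% of all windows, and the ETS core in 19 (30.2%), beside 20.7% and 10.3%. CACGTG reads the same on both strands, and none of the 3 motifs contains another. Among the 20 genes with lower, non-overlapping values, 3 held CACGTG (UQCR11, ATP5F1 and ATP5I), 4 the NRF1 core and 6 the ETS core. Among the 9 with higher values these counts were 1, 1 and 2, and among the 34 whose groups overlapped they were 3, 9 and 11. A match describes the letters only and is not a measured binding site.

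Complex III, which oxidises ubiquinol and reduces cytochrome c, had 8 of 9 subunits lower without overlap and 0 higher, beside 25.2% and 33.4% of all genes tested. UQCRH, the hinge protein that helps cytochrome c1 bind cytochrome c, lies on chromosome 1 (ENSG00000173660, 46303631 to 46316776, plus strand). It was the most abundant nuclear-encoded subunit of the complex. Its FPKM was 422 and 432 in wild type, then 315 and 289 in the knockdown, with a log2 change of −0.50 (SE 0.078, limma adjusted p = 0.060). UQCRC2, a core subunit (ENSG00000140740, chromosome 16, 21952660 to 21983660, plus strand), stood at 89.4 and 87.6 in wild type, then 60.7 and 69.7 in the knockdown, with a log2 change of −0.44 (SE 0.096, limma adjusted p = 0.089). In both genes the gap between groups was larger than the gap between replicates.

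The nuclear-encoded catalytic subunits of complex III that carry metal centres had changes of similar size but wider spread. CYC1, cytochrome c1, stood at 175.6 and 170.4 FPKM in wild type, then 142 and 113 in the knockdown (log2 change −0.44, SE 0.13, limma adjusted p = 0.124). UQCRFS1, the Rieske iron-sulfur protein, stood at 70.3 and 72.2 and then at 62.4 and 46.7 (log2 change −0.39, SE 0.15, limma adjusted p = 0.203). In both genes MYC knockdown replicate 2 was the lower library, and the difference from wild type in MYC knockdown replicate 1 was −0.28 for CYC1 and −0.19 for UQCRFS1.

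The remaining subunits of complex III differed by less. UQCRB had 144 and 123.5 FPKM in wild type and 118 and 115 in the knockdown, UQCR10 had 69.0 and 70.8 and then 63.8 and 60.6, and UQCR11, the least abundant subunit, had 53.0 and 47.9 and then 45.5 and 43.1. Their log2 changes were −0.20, −0.16 and −0.18. UQCRQ overlapped between the groups, with 199 and 178 in wild type and 188 and 169 in the knockdown (log2 change −0.080). UQCRC1, the partner of UQCRC2 in the core of the complex, stood at 124.5 and 135 in wild type, then 123.5 and 122.6 in the knockdown, so its groups were separated by about 1 FPKM. With equal column sums the change of UQCRC1 turned from −0.076 to 0.019.

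Ratios between subunits within 1 library do not change when a library is scaled by a constant factor, as with equal column sums or median-of-ratios scaling, but they can change with quantile normalization. The pairs given here were picked with their values in view. The ratio of UQCRH to UQCRC1 in FPKM was 3.39 and 3.20 in wild type, then 2.55 and 2.36 in the knockdown, and that of UQCRC2 to UQCRC1 was 0.718 and 0.648 and then 0.492 and 0.569. The ratio of CYCS to COX4I1 was 0.303 in both wild-type libraries and 0.201 and 0.231 in the knockdown. The groups did not overlap for these 3 ratios, so the members of each pair differed unequally. The ratio of CYCS to CYC1 was 0.627 and 0.669 in wild type, then 0.480 and 0.621 in the knockdown, so its groups nearly met.

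**Figure D2:**
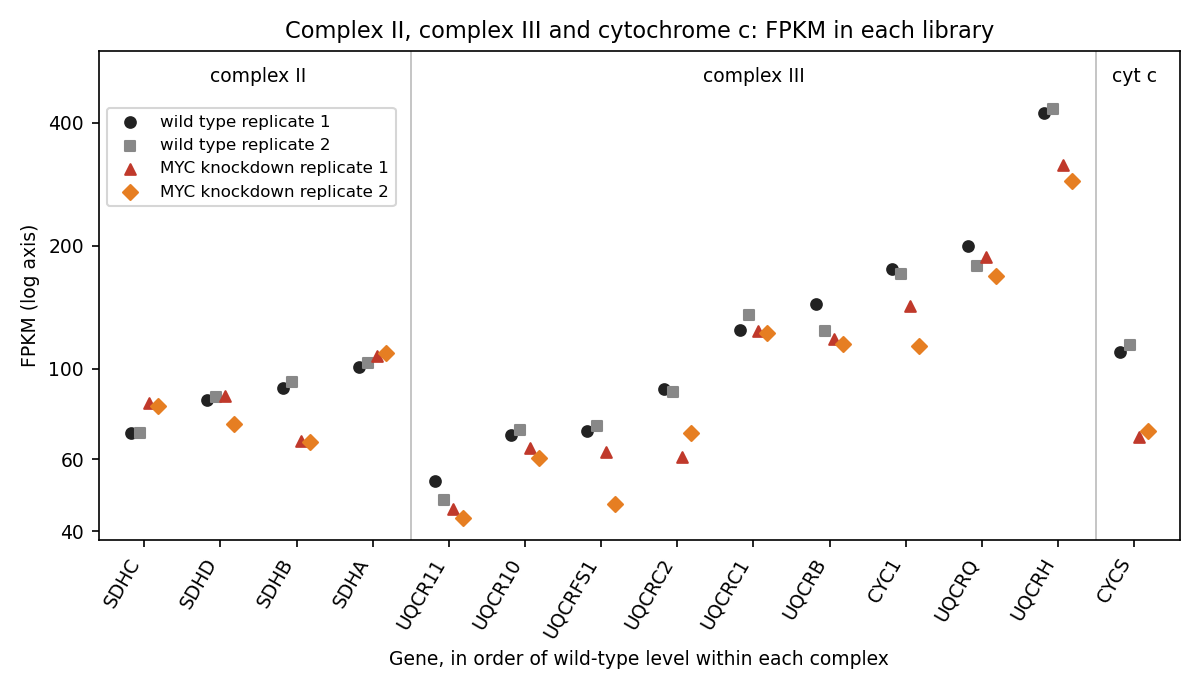
FPKM of each gene of complex II, complex III and cytochrome c in each of the 4 libraries on a log axis, with genes in order of wild-type level within each complex and 1 marker per library. In SDHB, UQCRC2, UQCRH and CYCS the knockdown markers lie under the wild-type markers, while in SDHA and SDHC they lie above.

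Complex II, succinate dehydrogenase, links the citric acid cycle to the chain and is the complex whose subunits are all nuclear-encoded. Its 4 subunits did not share a direction. SDHB, which holds the iron-sulfur clusters (ENSG00000117118, chromosome 1, 17018722 to 17054170, minus strand), stood at 89.5 and 92.8 FPKM in wild type, against 66.6 and 66.1 in the knockdown. Its log2 change was −0.45 (SE 0.072, limma adjusted p = 0.062), with −0.45 and −0.46 in the knockdown libraries taken singly. SDHC, a membrane anchor (ENSG00000143252, chromosome 1, 161314257 to 161375340, plus strand), was higher in both knockdown libraries, at 82.6 and 81.1 against 69.5 in both wild-type libraries (log2 change 0.23, SE 0.071, limma adjusted p = 0.138).

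SDHA, the flavoprotein that oxidises succinate, stood at 100.8 and 103 FPKM in wild type, then 107 and 109 in the knockdown (log2 change 0.085, limma adjusted p = 0.488). SDHD, the other membrane anchor, stood at 83.9 and 85.5 and then at 85.8 and 73.1, with overlapping groups (log2 change −0.095). The ratio of SDHB to SDHA was 0.888 and 0.898 in wild type, then 0.622 and 0.604 in the knockdown, and that of SDHB to SDHC was 1.29 and 1.33 and then 0.806 and 0.816. SDHB was therefore above SDHC in wild type and below it in the knockdown, in every library. Of the complex II assembly factors, SDHAF2, which helps to attach the flavin to SDHA, stood at 30.3 and 28.1 in wild type, then 36.7 and 34.2 in the knockdown (log2 change 0.27, limma adjusted p = 0.163), and SDHAF1, which serves the iron-sulfur subunit, overlapped at 5.25 and 5.24 and then 5.81 and 3.60.

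Complex V, the ATP synthase, had 7 of 15 subunits lower without overlap and 1 higher, beside 25.2% and 33.4% of all genes tested. In the catalytic F1 head, ATP5D, the delta subunit of the central stalk (ENSG00000099624, chromosome 19, 1241746 to 1244826, plus strand), stood at 116 and 120.3 FPKM in wild type, then 92.5 and 78.4 in the knockdown (log2 change −0.47, SE 0.10, limma adjusted p = 0.091). ATP5B, the catalytic beta subunit, stood at 372 and 376 and then at 319 and 283 (log2 change −0.31, limma adjusted p = 0.117). ATP5A1, the alpha subunit that pairs with beta, had a change of −0.081, which became 0.014 with equal column sums, and ATP5C1, the gamma subunit, overlapped at −0.11.

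ATP5E, the epsilon subunit and the least abundant of the complex, stood at 44.8 and 40.2 FPKM in wild type, then 40.7 and 44.8 in the knockdown (log2 change 0.0091). The ring of subunit c, through which protons pass, is built from 1 mature protein encoded by ATP5G1, ATP5G2 and ATP5G3. All 3 genes had overlapping groups, with changes of −0.23, −0.12 and −0.20, and in each the lowest of the 4 values was that of MYC knockdown replicate 2. ATP5G3 was the most abundant of them, at 277 and 243 FPKM in wild type and 247 and 206 in the knockdown.

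The peripheral stalk of ATP synthase, which holds the head still while the ring turns, contained genes with changes in both directions. ATP5H, subunit d (ENSG00000167863, chromosome 17, 75038863 to 75046985, minus strand), stood at 205 and 188 FPKM in wild type, then 279 and 251.4 in the knockdown, without overlap. Its log2 change was 0.43 (SE 0.092, limma adjusted p = 0.086), and it was the highest among the 77 structural and cytochrome c genes. ATP5F1, subunit b of the same stalk, stood at 159 and 159.7 and then at 138 and 111 (log2 change −0.36, SE 0.13, limma adjusted p = 0.168). ATP5O, the subunit that joins the stalk to the head, stood at 120.4 and 120.0 and then at 106 and 107 (log2 change −0.17), and ATP5J, coupling factor F6, overlapped at 0.017.

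The ratio of ATP5H to ATP5F1 was 1.29 and 1.17 in wild type, then 2.01 and 2.27 in the knockdown, and that of ATP5H to ATP5O was 1.70 and 1.56 and then 2.62 and 2.35. Both ratios separated the groups. Of the small membrane subunits, ATP5J2, subunit f, stood at 593 and 630.1 FPKM in wild type, then 504 and 457 in the knockdown (log2 change −0.35, SE 0.085, limma adjusted p = 0.102). It was the most abundant complex V gene taken by the name rule. ATP5I, subunit e, had a change of −0.25 without overlap, and ATP5L, subunit g, had −0.0055 with overlap. A readthrough of ATP5J2 into PTCD1 has a row of its own at 0.75 to 1.29 FPKM.

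Complex IV, cytochrome c oxidase, had the highest median level in wild type, 273 FPKM, beside 161 for complex V, 130 for complex III, 102 for complex I and 87.9 for complex II. COX8A, a small subunit, was the most abundant structural gene of all, at 672 and 689 FPKM in wild type and 761 and 661 in the knockdown, with overlapping groups. COX7B had the lowest change of the complex, with 46.8 and 48.1 in wild type and 39.2 and 37.9 in the knockdown (log2 change −0.29, SE 0.077, limma adjusted p = 0.113). COX7C and COX4I1 followed at −0.20 each, COX4I1 with 363 and 376 and then 339 and 306 FPKM. COX7A2 was the 1 member of complex IV that was higher without overlap, at 282 and 265 and then 337 and 284 (log2 change 0.18, limma adjusted p = 0.364).

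The other subunits of complex IV lay close to wild type. COX6A1 stood at 577 and 582 FPKM in wild type, then 570.1 and 558 in the knockdown (log2 change −0.038), and this became 0.057 with equal column sums. NDUFA4, named after complex I but known as a subunit of complex IV, stood at 43.3 and 43.2 and then at 41.6 and 42.9 (−0.034). It was the least abundant subunit of the complex. Among the tissue-specific forms, COX4I2, COX6A2 and COX8C were listed at 0 in every library, COX6B2, COX7A1 and NDUFA4L2 were at 0.55 or less, and COX7B2, a testis form, stood at 2.16 and 5.23 in wild type, then 6.17 and 4.54 in the knockdown. Within the nuclear-encoded part of complex IV, nearly all of the summed FPKM came from the other subunits.

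Complex I, the entry point for electrons from NADH and the largest of the complexes, had 5 of 37 subunits lower without overlap (25.2% of all genes), 6 higher (33.4%) and 26 overlapping. In limma 0 of the 37 had an unadjusted p under 0.05, beside 25.9% of all genes. Its lowest non-overlapping members were NDUFA12 at −0.18, NDUFAB1, the mitochondrial acyl carrier protein, at −0.17, and NDUFB10 at −0.15. NDUFAB1 stood at 122.2 and 122 FPKM in wild type, then 109 and 107 in the knockdown (SE 0.068, limma adjusted p = 0.205). The highest without overlap were NDUFA5, at 31.0 and 29.7 and then 34.3 and 33.6 (log2 change 0.16), and NDUFA2 (0.15), while NDUFC2 had 0.22 with overlap. NDUFB1 was the most abundant nuclear-encoded subunit, at 411 and 325 in wild type and 405 and 401 in the knockdown. NDUFV3 was the least abundant, at 14.98 and 14.6 and then 16.1 and 16.7.

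The 3 core subunits that oxidise NADH (NDUFV1, NDUFV2 and NDUFS1) had a median change of −0.12. In each of these 3 genes MYC knockdown replicate 1 was above MYC knockdown replicate 2. For NDUFV1, which binds FMN, the values were 88.9 and 87.9 FPKM in wild type, 89.7 and 71.5 in MYC knockdown replicates 1 and 2. MYC knockdown replicate 1 was at the wild-type level in this gene, and replicate 2 was below it.

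Across complex I MYC knockdown replicate 1 was also mostly above replicate 2, but it was mostly above wild type as well. Set against the wild-type mean, 29 of 37 subunits were higher in MYC knockdown replicate 1 (median 0.11) and 10 of 37 in MYC knockdown replicate 2 (median −0.12), and MYC knockdown replicate 1 exceeded replicate 2 in 34 of 37. Over all 77 structural and cytochrome c genes it did so in 67. Of the 12953 genes tested, 7610 were above the wild-type mean in MYC knockdown replicate 1 and 6603 in replicate 2, and replicate 1 exceeded replicate 2 in 7834. For these 77 genes the median log2 gap between replicates was 0.054 for wild type and 0.17 for the knockdown, beside 0.076 and 0.20 for all genes tested, so the wider spread of the knockdown was not limited to the respiratory chain. In complex III 0 of 9 subunits were above the wild-type mean in either knockdown library, with medians of −0.18 and −0.22.

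**Figure D3:**
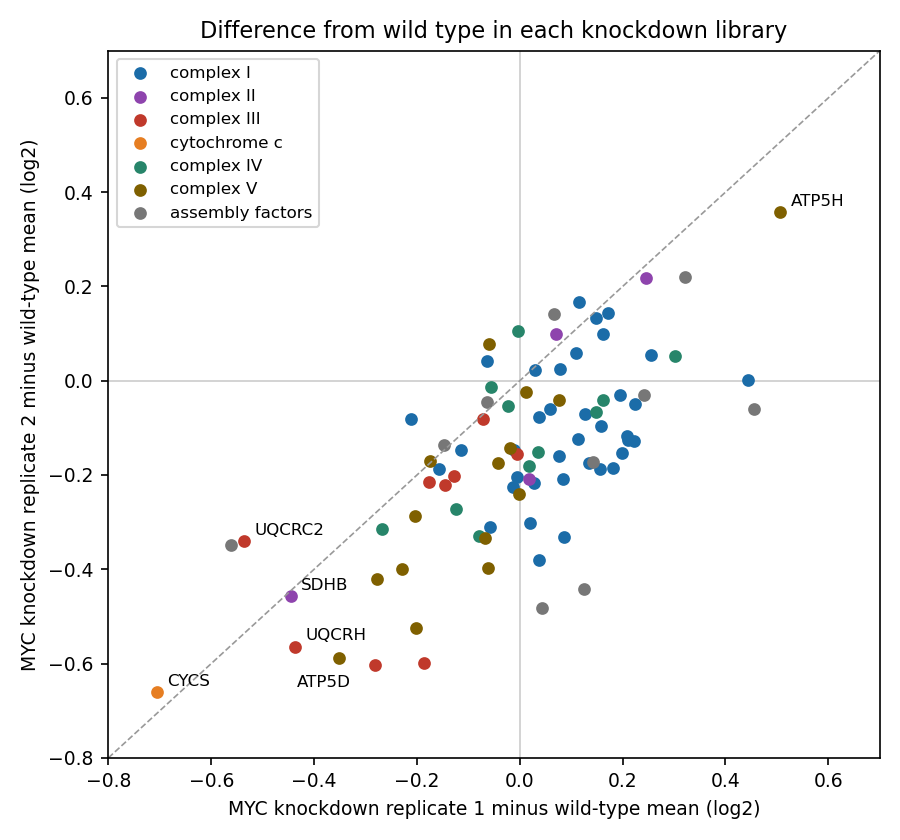
Each tested subunit and assembly factor as 1 point coloured by group, placed by its log2 difference from mean wild type in MYC knockdown replicate 1 (horizontal) and replicate 2 (vertical), with a dashed line where the libraries are equal. Most points lie below the dashed line, those of complex I gather right of 0 and below 0, and CYCS, SDHB, UQCRC2 and UQCRH lie well below 0 in both libraries.

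The subunits encoded by mitochondrial DNA were also lower in MYC knockdown replicate 2 than in replicate 1, in 13 of 13. Of these, 3 had lower, non-overlapping values and 0 higher, and 0 had an unadjusted p under 0.05 in limma, beside 25.2%, 33.4% and 25.9% of all genes. Their median difference from wild type was 0.10 for MYC knockdown replicate 1 but −0.51 for replicate 2. Together they took 10.2% and 9.55% of the Ensembl FPKM in wild type and 11.1% and 8.19% in the knockdown, with MYC knockdown replicate 2 lowest. MT-ND1 had the lowest change, with 1498 and 1507 FPKM in wild type and 1488 and 853 in the knockdown (−0.42), and MT-ND3 the highest (0.22). The part of MYC knockdown replicate 2 in the nuclear-encoded results was not tested.

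Of the 10 assembly factors among the members, 2 were lower without overlap (20%) and 2 higher (20%), beside 25.2% and 33.4% of all genes tested. Their median level in wild type, 19.2 FPKM, was below that of any complex. NDUFAF3, an early complex I assembly factor, stood at 41.3 and 44.4 FPKM in wild type, then 28.7 and 33.4 in the knockdown (log2 change −0.45, SE 0.11, limma adjusted p = 0.1004). NDUFAF2 stood at 39.9 and 38.4 and then at 35.2 and 35.5 (−0.14). SDHAF2 and NDUFAF5 were the higher ones, at 0.27 and 0.10. Of the factors that are no subunits, COX7A2L, which links complexes III and IV, had a change of −0.072, and ATP5S, coupling factor B, had 0.11.

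Genes that serve the chain under other names were taken from lists chosen by function, and their counts stand beside 25.2% lower and 33.4% higher of all genes. Of 24 complex IV assembly factors outside the name rule, 9 were lower without overlap and 6 higher (median −0.025). SURF1, an assembly factor whose loss causes Leigh syndrome, stood at 31.0 and 30.9 FPKM in wild type, then 45.2 and 41.9 in the knockdown (log2 change 0.48, SE 0.084, limma adjusted p = 0.067), and COX20, a chaperone of the subunit MT-CO2, stood at 39.7 and 32.6 and then at 53.5 and 64.7 (0.69, SE 0.15, limma adjusted p = 0.087). COX19, a copper-handling factor, had the lowest change (−0.39). Of 11 further complex I assembly factors 2 were lower and 3 higher (median −0.087), from NUBPL at −0.28 to TMEM70 at 0.30. Of 5 for complex III 1 was lower and 1 higher (median −0.16), from BCS1L, which inserts the Rieske protein, at −0.25 to TTC19 at 0.27. Of the 3 genes listed for complex V, a list that does not hold TMEM70, none was separated, from ATPAF2 at −0.30 to C7orf55 at 0.29.

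Coenzyme Q, the ubiquinone that carries electrons to complex III, is made by enzymes of which 13 were tested, 4 lower and 3 higher (median 0.060). ADCK3, also named COQ8A and required for its synthesis, stood at 18.4 and 19.9 FPKM in wild type, then 10.3 and 8.55 in the knockdown. Its log2 change of −0.95 (SE 0.13, limma adjusted p = 0.057) was larger than that of CYCS, and the groups did not overlap. COQ6 had the highest change of the list (0.35). Of 9 genes of haem synthesis and cytochrome c maturation 1 was lower and 3 higher (median 0.15), from PPOX at −0.18 to ALAD at 0.53.

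Of 8 tested regulators of mitochondrial production 4 were lower without overlap and 0 higher (median −0.14), beside 25.2% and 33.4% of all genes, and 3 had an unadjusted p under 0.05 in limma, beside 25.9% of all genes. PPARGC1B, a coactivator of mitochondrial genes, stood at 1.4 and 1.5 FPKM in wild type, then 0.59 and 0.34 in the knockdown (log2 change −0.75, SE 0.20, limma adjusted p = 0.116). PPARGC1B reached 1 FPKM only in the wild-type libraries, so the filter kept it through the group where it was high. Its fall is therefore no separate support, though it is among the 4 lower and the 3 with p under 0.05. TFAM, which packs and transcribes mitochondrial DNA, stood at 35.6 and 34.3 and then at 29.5 and 27.98 (−0.27), and NRF1 overlapped (0.086). PPARGC1A stood at 0.02 to 0.04 FPKM and was not tested. Of the subunits that the name rule misses, C14orf2, a small ATP synthase subunit, stood at 131 and 130.3 in wild type, then 100.2 and 115 in the knockdown (−0.28), USMG5, another, at 628 and 584 and then 639 and 623, and ATPIF1, the inhibitor of ATP synthase, at 99.1 and 93.8 and then 130.0 and 91.8 (0.18).

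The sign of small medians depended on the scaling, and that of complexes III and V did not. The median of complex III was −0.20 as deposited, −0.10 with equal column sums, −0.20 after quantile normalization and −0.24 with median-of-ratios scaling, while the median of all genes tested moved from 0.038 to 0.12, −0.0054 and −0.0041. Relative to all genes, complex III was thus at −0.23, −0.22, −0.19 and −0.24, and complex V at −0.21, −0.20, −0.13 and −0.22. The median of complex IV turned from −0.038 to 0.057 with equal column sums. Relative to all genes, complex IV was at −0.076 as deposited and −0.066 with equal column sums. It was at −0.014 after quantile normalization and −0.083 with median-of-ratios scaling. Under all 3 scalings 0 of 9 complex III subunits were higher without overlap, and 6, 7 and 9 were lower. The median of complex I was −0.12 without MYC knockdown replicate 1 and 0.11 without MYC knockdown replicate 2, and that of complex V was −0.24 and −0.062. For complex III these were −0.22 and −0.18.

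**Figure D4:**
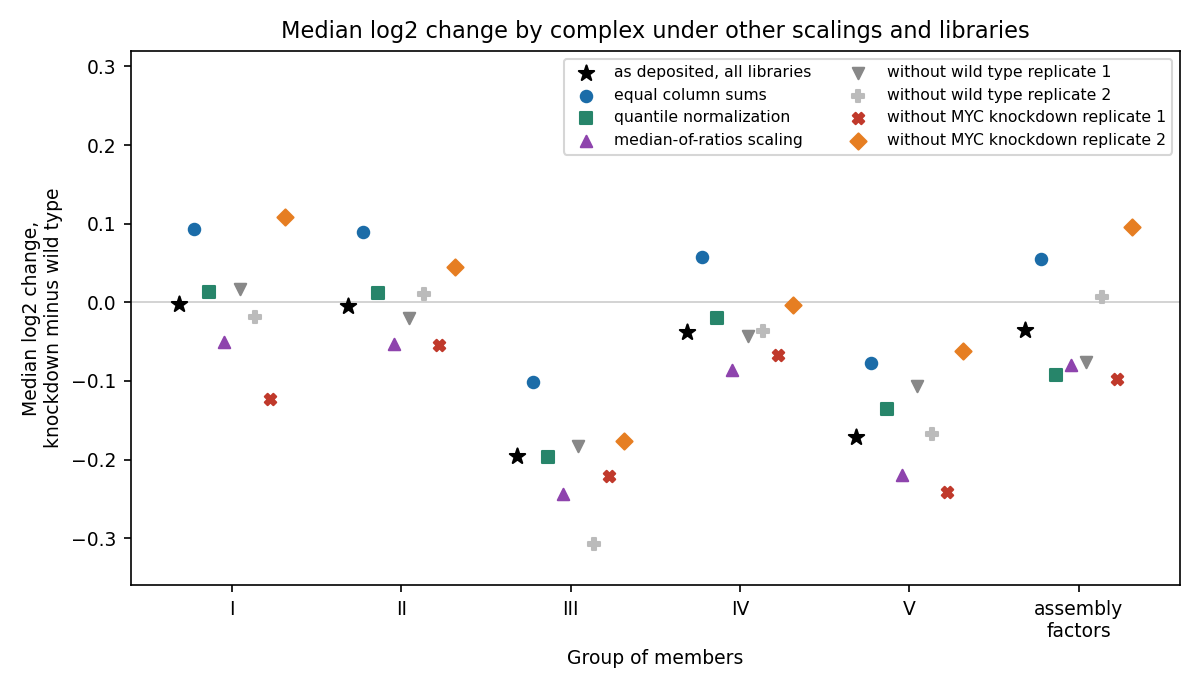
Median log2 change (knockdown minus wild type) of each group of genes as deposited with all libraries, under 3 other scalings, and with each library left out, 1 marker per setting. Every marker of complexes III and V lies below 0, while those of complexes I, II and IV and of the assembly factors lie on both sides of it.

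Some rows could not be read as separate genes. Second rows of NDUFA7, NDUFB8, SDHD and UQCR11 carry other Ensembl identifiers that GENCODE release 29 names as overlapping loci, and they stood at 2.34 FPKM or less. These rows lie on the same strand as the members they overlap, and how shared reads were divided is not stated. In all, 175 pseudogene rows are named after 40 of the members, of which 135 were listed at 0 in every library and the highest, COX6CP1, reached 10.9 FPKM. The copies of UQCRH, UQCRC2 and ATP5H were listed at 0, and those of SDHA came to at most 5.02% of that gene.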

How the data were processed

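RNA of NUGC3 cells was sequenced in 4 libraries, grouped by sample title into 2 wild-type and 2 MYC knockdown. Trizol was used for total RNA and Illumina's standard method for libraries, per the labels' protocols. STAR and RSEM are named, per the submitters' processing notes. Versions, genome build and annotation: not given in the sources used here. Deposited values were read as FPKM per gene made by the authors, because the columns do not sum to 1 fixed total, although TPM with rows left out is possible. Rows with Ensembl identifiers were used.

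The filter kept 12953 genes, those reaching 1 FPKM or more in 2 or more libraries. Their log2(FPKM + 1) values, with pseudocount 1, entered limma 3.58.1 in R 4.3.3 (lmFit, then eBayes with trend). P-values were adjusted by Benjamini-Hochberg over all 12953, with the threshold at 0.05. This scale understates the change of low genes. The fit was tested on simulated data. The correlation across genes between the deviations of wild type replicate 1 and MYC knockdown replicate 1 was −0.0059. It shows no visible shared replicate effect but cannot show that the libraries were unpaired. The main fit used no pairing.

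The members and lists were chosen with earlier results of these data known. Named were MYC, CYCS, CYC1, the SDH and subunit c genes, the complex IV form pairs, the 3 lowest and 2 highest non-overlapping members of complexes I, III, IV and V with a mean of at least 5 FPKM, their most and least abundant members, the 2 lowest and highest assembly factors, members with an adjusted p under 0.10, and the lowest and highest gene of each other list. Other named members were chosen after their values were seen. Positions come from GENCODE release 29, matched by Ensembl identifier, and promoter windows from RefSeq (GRCh38.p14), in which 77 of 97 members had an entry. The alternatives were 3 scalings, the pseudocount (0.1), the filter, protein-coding rows alone, a replicate block, the limit of 0.10 and each library left out.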

Additional observations from a re-analysis of the deposited data

How the results depend on the processing

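Among the members, 0 passed 0.05 in limma, and this count was 2 with median-of-ratios scaling (2.38% of all genes passed), 1 with a mean of at least 5 FPKM (3.23%), 2 with protein-coding rows alone (3.33%) and 6 at an adjusted p of 0.10 (10.4%). With single libraries left out it ran from 0 to 24, and without either wild-type library it was 0. The count of lower members (30) was 18 with equal column sums and 46 with median-of-ratios scaling, and 32 to 66 with single libraries left out, and the share of all genes was 18.1%, 30.7% and 30.9% to 42.6%. The count of higher members (12) was 29, 6 and 15 to 43 in the same order, and the share of all genes was 44.7%, 29.3% and 40.01% to 51.8%. The cause of these shifts was not tested.

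With equal column sums the median log2 change was 0.093 for complex I, 0.055 for the assembly factors, 0.090 for complex II, −0.10 for complex III, 0.057 for complex IV and −0.077 for complex V, and with median-of-ratios scaling it was −0.24 for complex III and −0.087 for complex IV. With single libraries left out the medians ran from −0.12 to 0.11 for complex I, −0.31 to −0.18 for complex III, −0.067 to −0.0037 for complex IV, −0.24 to −0.062 for complex V and −0.098 to 0.096 for the assembly factors.

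Among 63 named genes, changes turned sign with equal column sums for COX6A1 (0.057), NDUFA4 (0.059), UQCRC1 (0.019) and ATP5A1 (0.014), after quantile normalization for COX6A1 (0.11) and NRF1 (−0.0011), and with median-of-ratios scaling for ATP5E (−0.038). With single libraries left out the signs of SDHD (−0.21 to 0.018), COX6B1 (−0.0037 to 0.11), COX8A (−0.041 to 0.16), NDUFB1 (−0.028 to 0.31), ATP5E (−0.066 to 0.085), C7orf55 (−0.022 to 0.59), PPOX (−0.44 to 0.078), COL1A1 (−0.84 to 0.35) and ATPIF1 (−0.071 to 0.43) turned. The direction of all 63, and their side of 0.05, stayed the same with pseudocount 0.1, with no filter and with the replicate block. At 0.10, 0 members passed with no filter, nor did any of the 24879 genes then tested. That limit was passed by 9 members with a mean of at least 5 FPKM and by 8 with protein-coding rows alone. Of all genes, 1492 of 9593 and 1651 of 11552 then passed it. Under the replicate block 0 members passed 0.05 and 3 passed 0.10, beside 723 of all genes in place of 1349, and the medians kept their values, such as −0.20 for complex III. FPKM keeps no depth, so what depth limits could not be measured.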
